A study of Mus musculus with 4 samples.

Results

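Synaptic vesicle release was examined through 43 genes that encode its core machinery, chosen by gene symbol from the 32285 genes counted in single nuclei of the adult mouse cortex. They comprise 10 synaptotagmins and Doc2 proteins, 4 SNAREs, 9 SNARE regulators and priming factors, 12 proteins of the vesicle membrane or surface, and 8 scaffolds of the active zone. All 43 symbols were found. Together they took 1.56% and 1.57% of all UMIs (unique molecular identifiers, each standing for 1 captured RNA molecule) in the lanes of the saline pool and 1.60% and 1.62% in the lanes of the risperidone pool.

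A synaptic vesicle fuses with the presynaptic membrane when the vesicle SNARE synaptobrevin (Vamp1, Vamp2) zips up with the plasma membrane SNAREs SNAP-25 (Snap25) and syntaxin (Stx1a). Munc13 proteins (Unc13a, Unc13b, Unc13c) prime the vesicle, complexins (Cplx1, Cplx2, Cplx3) hold and assist the SNARE complex, and several synaptotagmins sense the calcium that triggers fusion. The active zone scaffolds RIM, RIM-BP, ELKS, Bassoon and Piccolo keep vesicles and calcium channels together at the release site, while synapsins, SV2 proteins, synaptophysin-like proteins and Rab3 serve the vesicle itself. Cortical glutamatergic neurons and the classes of GABAergic interneurons use different paralogs of several of these families.

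All mice were wild-type C57BL/6J and were studied at PND 90, that is 90 days after birth. The risperidone mice had received this antipsychotic, a blocker of dopamine and serotonin receptors, at 4 mg/kg i.p. each day for 21 days from PND 22, and were then left without drug until the study age. The control mice had received saline on the same schedule. Risperidone had been dissolved in the solvent DMSO and then diluted in saline, while the paper's methods name only saline for the controls. For each condition the right hemicortices of 5 males and 5 females were minced and combined into 1 pool, nuclei were sorted by DAPI, and 2 Chromium lanes were loaded from each pool. The pool is thus the unit of replication, with n = 1 per condition. The lanes are technical runs of it, and every difference below compares those pools and has no replicate check, no p-value and no standard error.

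After filtering, the saline lanes held 29533 and 29981 nuclei and the risperidone lanes 25696 and 23283, with a median of 3297 and 4050 UMIs against 5690 and 7802. The pools also differed in other ways. The shallowest deposited nucleus had 1364 and 1630 UMIs in the saline lanes but 500 in either risperidone lane, and Xist was at 292 and 294 CPM (the UMIs of a gene per 1000000 UMIs) against 432 and 424. Mitochondrial UMIs were 0.0408% and 0.0395% of the saline total and 0.0185% and 0.0163% of the risperidone total, lane by lane, and their part in the results was not tested. Between 160 and 221 cell barcodes were shared by any pair of lanes. Nuclei were assigned to classes by the UMIs of 113 marker genes, none of them a member. Of these nuclei, 14940 and 16292 (saline) and 15020 and 13138 (risperidone) were glutamatergic, 1032 and 879 against 830 and 726 were PV-INs (parvalbumin interneurons), and 691 and 687 against 520 and 451 were Sst-INs (somatostatin interneurons). All class and type names mean "like" that class by its markers. Of the 8 glutamatergic types, one assigned by L6b markers had the subplate marker Nxph4 at 1.86 CPM but Inpp4b at 1385 CPM and is called Inpp4b-high, and one assigned by near-projecting markers is called Tshz2-high. Deep-layer IT neurons are named by assignment only, as 2 of their 5 markers were highest in that type among the 8. The share of a class's UMIs estimated to be RNA of other cells was larger in the saline lanes of every neuronal class, of which 3 are given here and the others below. It was 27.9% and 27.7% against 23.4% and 19.7% in glutamatergic neurons, 32.4% and 35.0% against 28.2% and 25.7% in PV-INs, and 35.8% and 31.6% against 18.7% and 18.8% in Sst-INs.

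The first question was how the release genes are distributed over the neuronal types, without regard to treatment. Levels are given here as plain CPM, the UMIs of a gene scaled by the total UMIs of that type in a lane. A member was counted as highest in 1 type when the same one of the 13 neuronal types had the highest level in all 4 lanes and its mean was at least 2-fold above the median type. This held for 12 of the 43 members, of which 4 were highest in Lamp5-INs (neurogliaform and related interneurons), 3 in PV-INs, and 1 each in Sst-INs, Vip-INs, striatal-type spiny projection neurons (SPNs), L2/3 IT and L4/5 IT neurons. For 23 members the same type was highest in all 4 lanes, whatever the size. Among genes with at least 10 CPM in 1 or more types, as measured below, these were 11 of 40 members (27.5%) and 22 of 40 (55%), against 17.9% and 34.7% of 8901 genes.

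**Figure D1:**
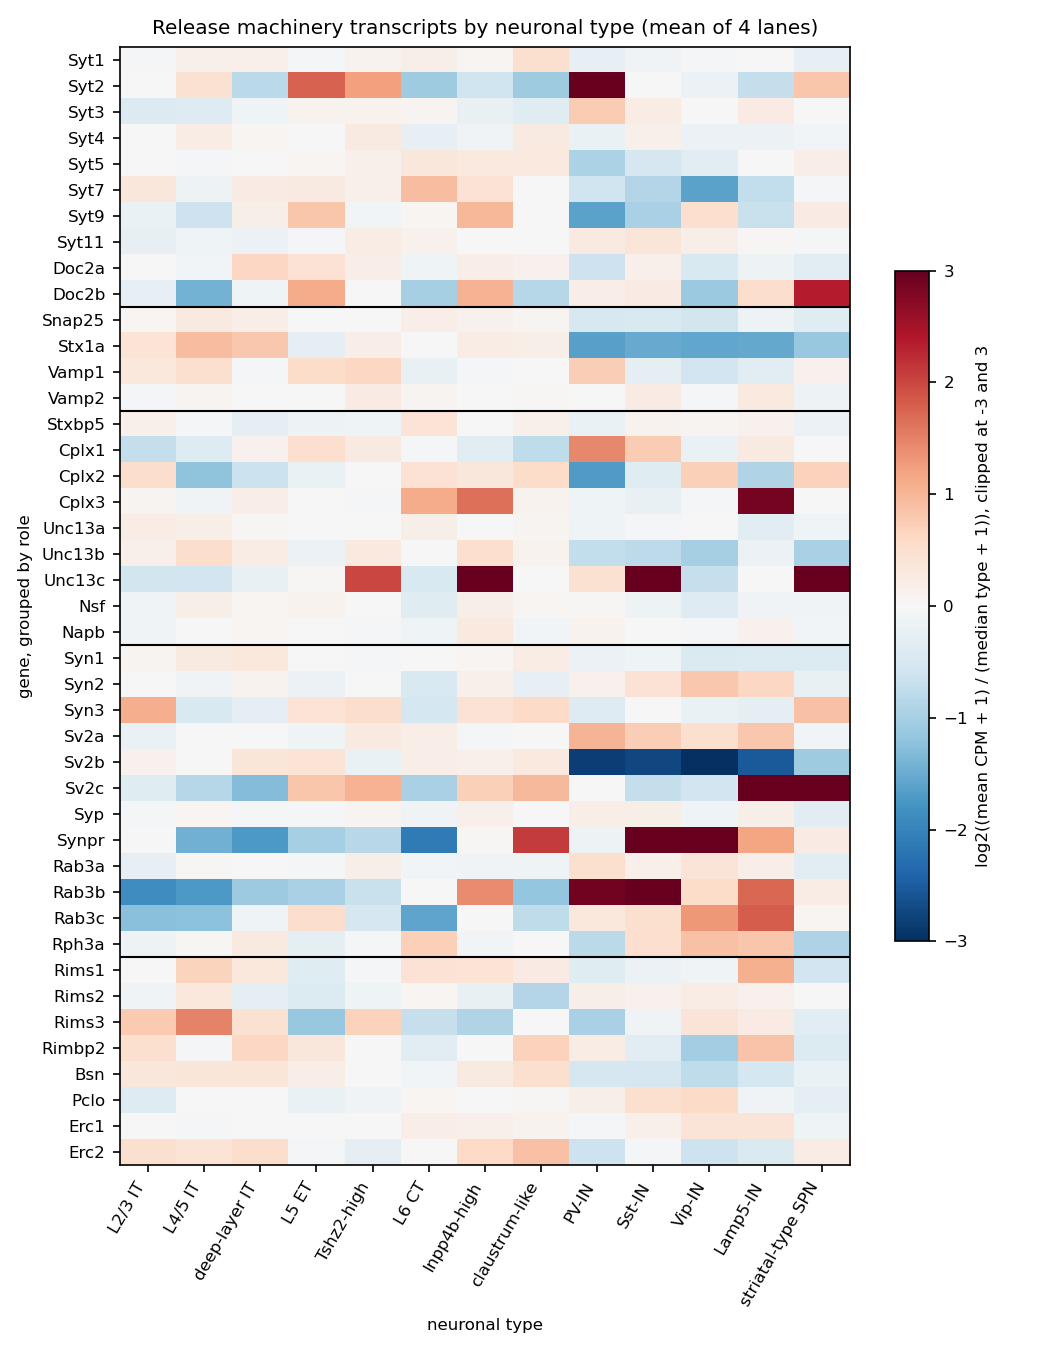
Level of each of the 43 genes (rows, grouped by role) in 13 neuronal types (columns), as log2 of the mean CPM of 4 lanes over the median type, with 1 CPM added to both. Dark red cells mark Syt2 in PV-INs, Rab3b in Sst-INs and PV-INs, Sv2c in Lamp5-INs and SPNs and Synpr in Sst-INs and Vip-INs, whereas Sv2b and Stx1a are blue in all 4 interneuron classes.

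Among the synaptotagmins and Doc2 proteins, Syt2 marked PV-INs and Doc2b marked SPNs. Syt2 encodes the fast sensor of many inhibitory terminals. In PV-INs it stood at 134 and 160 CPM in the saline lanes and at 131 and 147 CPM in the risperidone lanes (mean 143 ± 13.4, SD of 4 lanes). The next type, L5 ET neurons, had 28.1 to 32.7 CPM and did not overlap with PV-INs, and the lowest, L6 CT, had a mean of 3.35 CPM. On the opposite strand Syt2 overlaps Ppp1r12b, which was at 238 CPM over all lanes. Doc2b, a high-affinity calcium sensor linked to spontaneous and asynchronous release, averaged 31.8 CPM in SPNs (22.7 to 38.8 over the lanes) and 12.9 CPM in L5 ET. Syt7, the sensor of asynchronous release and facilitation, was highest in L6 CT neurons with a mean of 424 CPM and lowest in Vip-INs with 72.3 CPM, but did not reach 2-fold over the median type.

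Several vesicle proteins varied between types. Rab3b, a GTPase that docks vesicles, had 177 and 181 CPM in the saline lanes and 188 and 174 CPM in the risperidone lanes of Sst-INs (mean 180 ± 5.81), and no lane of PV-INs, the next type (mean 97.8), reached these levels. L2/3 IT neurons had a mean of 2.69 CPM. Sv2c, a vesicle glycoprotein best known from the basal ganglia, had 357 and 379 CPM against 462 and 500 CPM in Lamp5-INs and a mean of 252 CPM in SPNs. These types did not overlap. Synpr, which encodes synaptoporin, had means of 1687 CPM in Vip-INs and 1546 CPM in Sst-INs, whose lanes did overlap, and only 30.4 CPM in L6 CT neurons. Rab3c was highest in Lamp5-INs (mean 1149 CPM, against 811 CPM in Vip-INs and 109 CPM in L6 CT). Syn3, a synapsin, was highest in L2/3 IT neurons (504 CPM) ahead of SPNs (435 CPM), and Sv2a in PV-INs (121 CPM) ahead of Lamp5-INs (104 CPM). For both of the latter genes the lowest lane of the leading type lay just above the highest lane of the next, at 491 against 487 CPM and at 112 against 111 CPM.

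Sv2 paralogs were thus split between excitatory and inhibitory nuclei. Sv2b ranged from 478 to 735 CPM over the 8 glutamatergic types but from 64.0 to 95.2 CPM over the 4 interneuron classes. In PV-INs the level estimated to come from RNA of other cells was 1.73 times the measured Sv2b level in the saline pool and 2.58 times in the risperidone pool. An estimate above the measured level is too large for that gene. The part of this RNA in the interneuron levels of Sv2b was not tested. The plasma membrane SNARE Stx1a showed the same division, with 50.6 to 117 CPM in glutamatergic types and 19.1 to 20.9 CPM in interneuron classes.

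Among regulators and scaffolds, Cplx1 was highest in PV-INs (mean 88.0 CPM, against 55.0 CPM in Sst-INs), in which Cplx2 was lowest of all neuronal types (25.1 CPM, against 138 CPM in Vip-INs). Cplx3, the complexin of neurogliaform and subplate cells, was counted in Lamp5-INs on few molecules, with 6, 9, 11 and 32 UMIs in saline lanes 1 and 2 and risperidone lanes 1 and 2, and no UMI of it fell in Sst-INs. Its 15.4 CPM in risperidone lane 2 stood apart from 4.05 to 5.43 CPM in the other lanes. Rims1 was highest in Lamp5-INs (3757 CPM, against 2825 CPM in L4/5 IT) and Rims3 in L4/5 IT (95.5 CPM, against 58.3 CPM in L2/3 IT). Unc13c, the Munc13 known from the cerebellum, had means of 498 CPM in Sst-INs, 402 CPM in Inpp4b-high neurons and 389 CPM in SPNs but 18.6 CPM in Vip-INs. The leading type of Unc13c changed between lanes, so it was not counted. Divided by the length of the gene, a rough scale for 3′ counts that include introns, Snap25 (12.4 CPM per kb over all lanes) and Syt1 (8.62 CPM per kb) were the highest members and Cplx3 and Syt9 (both 0.09 CPM per kb) the lowest.

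Sequence before the transcription start was read for the 34 members present in a RefSeq promoter table of GRCm38.p6, which gave 44 windows of 250 bases. Windows of 4 members are shown because results turn on them: Syt2 for its level in PV-INs, Syt3 and Bsn for their levels in the risperidone pool, and Syn1 because it alone held the searched neuronal motifs. Capitals mark matches on either strand to the GC box GGGCGG, the cAMP response element TGACGTCA or the left part of the RE1 motif, TTCAGCACC, which is read by the repressor REST.
Syt2 (GRCm38.p6 chr1:134646362-134646611, plus strand): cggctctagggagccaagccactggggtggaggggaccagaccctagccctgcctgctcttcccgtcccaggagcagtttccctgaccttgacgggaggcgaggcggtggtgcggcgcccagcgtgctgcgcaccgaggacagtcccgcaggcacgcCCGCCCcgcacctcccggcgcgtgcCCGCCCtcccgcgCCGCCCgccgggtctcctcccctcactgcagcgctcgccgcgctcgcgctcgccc
Syt3 (GRCm38.p6 chr7:44383876-44384125, plus strand): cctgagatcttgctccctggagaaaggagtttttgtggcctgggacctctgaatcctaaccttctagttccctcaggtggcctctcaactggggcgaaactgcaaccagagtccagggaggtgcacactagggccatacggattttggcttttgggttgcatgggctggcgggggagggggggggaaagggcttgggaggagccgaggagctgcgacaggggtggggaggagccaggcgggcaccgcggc
Bsn (GRCm38.p6 chr9:108190384-108190633, minus strand): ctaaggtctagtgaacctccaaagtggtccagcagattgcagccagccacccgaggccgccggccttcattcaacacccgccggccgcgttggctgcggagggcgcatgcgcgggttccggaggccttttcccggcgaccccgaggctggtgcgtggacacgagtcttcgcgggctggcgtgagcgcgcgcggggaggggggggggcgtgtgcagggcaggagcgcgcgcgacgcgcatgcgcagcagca
Syn1 (GRCm38.p6 chrX:20920919-20921168, minus strand): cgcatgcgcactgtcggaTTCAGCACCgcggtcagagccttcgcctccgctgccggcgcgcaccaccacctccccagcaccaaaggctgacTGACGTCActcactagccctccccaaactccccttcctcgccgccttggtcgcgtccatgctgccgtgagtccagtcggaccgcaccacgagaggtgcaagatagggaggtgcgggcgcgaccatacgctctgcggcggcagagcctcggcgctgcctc
The Syt2 window holds 3 GC boxes, all on the opposite strand (CCGCCC). Another Syt2 window in the table, at chr1:134709050-134709299, also holds the GC box and is not shown, whereas Syt3 and Bsn hold none of the letters searched. The GC box was present in 25 of the 44 windows (56.8%) and in 32.7% of all 32817 windows in the table. The cAMP response element was found in 1 member window (2.27%) against 1.55% of all windows, and the RE1 part in 1 member window against 0.302%, both in Syn1. No window of a member had 2 different motifs that overlapped. These matches describe letters in the window and are no evidence of binding.

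The second question was whether transcripts of the release machinery differed between the risperidone and the saline pool in glutamatergic neurons. Fold changes are log2 ratios of the pooled UMIs, risperidone over saline, scaled by edgeR's TMM factors, and levels are TMM-scaled CPM. A gene was measured when its mean was at least 10 CPM over the lanes. It was listed when its log2 fold change was at least 0.5 in size, the size the study uses, and the pools' lanes did not overlap. Intervals are exact binomial at 95%, conditional on the sum of both pools, and cover counting error only.

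In glutamatergic neurons, 38 of the 43 members were measured, the others being Doc2a, Doc2b, Cplx3, Rab3a and Rab3b. The calcium sensors Syt3 and Syt7, the scaffold Bsn, the complexin Cplx2, the priming factor Unc13c and the vesicle protein Synpr were listed as lower in the risperidone pool, and no member was listed as higher. These 6 of 38 are 15.8% of measured members, where 7.58% of all 7229 measured genes were listed as lower and 4.26% as higher. Without TMM factors (plain CPM) Syt3, Syt7 and Unc13c remained listed, while Bsn (-0.49), Synpr (-0.48) and Cplx2 (-0.46) fell short, and over all genes the listing turned to 4.50% lower and 7.07% higher. Unc13c in turn was not listed in nuclei with Xist and without Y-linked UMIs (-0.20), nor with the 8 layer types weighted equally. Nuclei with Y-linked UMIs and without Xist gave -1.26 for Unc13c, while Cplx2 (-0.39) and Synpr (-0.34) fell short there. The median log2 fold change of the members was -0.12, against -0.02 for all genes, and 25 of 38 (65.8%) were below 0 against 52.5% of all genes. Without TMM factors these medians were -0.033 and 0.070, and with the 8 layer types weighted equally they were -0.048 and -0.015.

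Syt3, a synaptotagmin of high calcium affinity, showed the largest difference. It had 22.2 and 21.3 CPM in the saline lanes and 12.3 and 12.1 CPM in the risperidone lanes, so that the pools did not overlap. Its log2 fold change was -0.83 (interval -0.90 to -0.75), that is, 1.77-fold lower, from 3184 and 2747 UMIs. Syt3 lies on the plus strand of chromosome 7, from 44384102 to 44400187 (GRCm38), and the identifier in the matrices is ENSMUSG00000030731.

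Syt7 had 343 and 336 CPM in the saline lanes and 222 and 223 CPM in the risperidone lanes, with a log2 fold change of -0.61 (-0.63 to -0.59). Bsn, which encodes the giant scaffold Bassoon, had 371 and 370 CPM against 247 and 249 CPM, and a log2 fold change of -0.58 (-0.59 to -0.56). For both genes the lanes of a pool lay close to each other and the pools did not overlap. Bsn spans 94.4 kb on the minus strand of chromosome 9 (108096022 to 108190384), and Syt7 lies on the plus strand of chromosome 19 (10389090 to 10453180). Cplx2, a complexin that clamps and assists fusion, had 106 and 107 CPM against 71.5 and 74.9 CPM, with a log2 fold change of -0.54 (-0.58 to -0.51). It was again lower in both risperidone lanes.

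Unc13c and Synpr differed by a like amount but are far more abundant in interneurons or other types than in most glutamatergic neurons. Unc13c had 69.9 and 66.6 CPM against 44.2 and 41.5 CPM (log2 fold change -0.67, -0.71 to -0.63), and the level estimated from RNA of other cells was 0.494 of the measured level in saline and 0.463 in risperidone. Synpr had 112 and 121 CPM against 79.1 and 78.8 CPM (log2 fold change -0.57, -0.60 to -0.54), with estimated ratios of 0.539 and 0.450. For the other 4 listed genes these ratios were between 0.242 and 0.287 in saline and between 0.189 and 0.228 in risperidone, close to the average of the class. The GABAergic markers Gad1, Gad2 and Dlx6os1 summed to 23.8 and 22.2 CPM in the saline and to 11.9 and 11.4 CPM in the risperidone glutamatergic nuclei, none at 0. With the estimate subtracted Unc13c stayed listed as lower, whereas the log2 fold change of Synpr became -0.43, short of listing. The part of RNA of other cells in the Unc13c and Synpr differences was not tested.

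**Figure D2:**
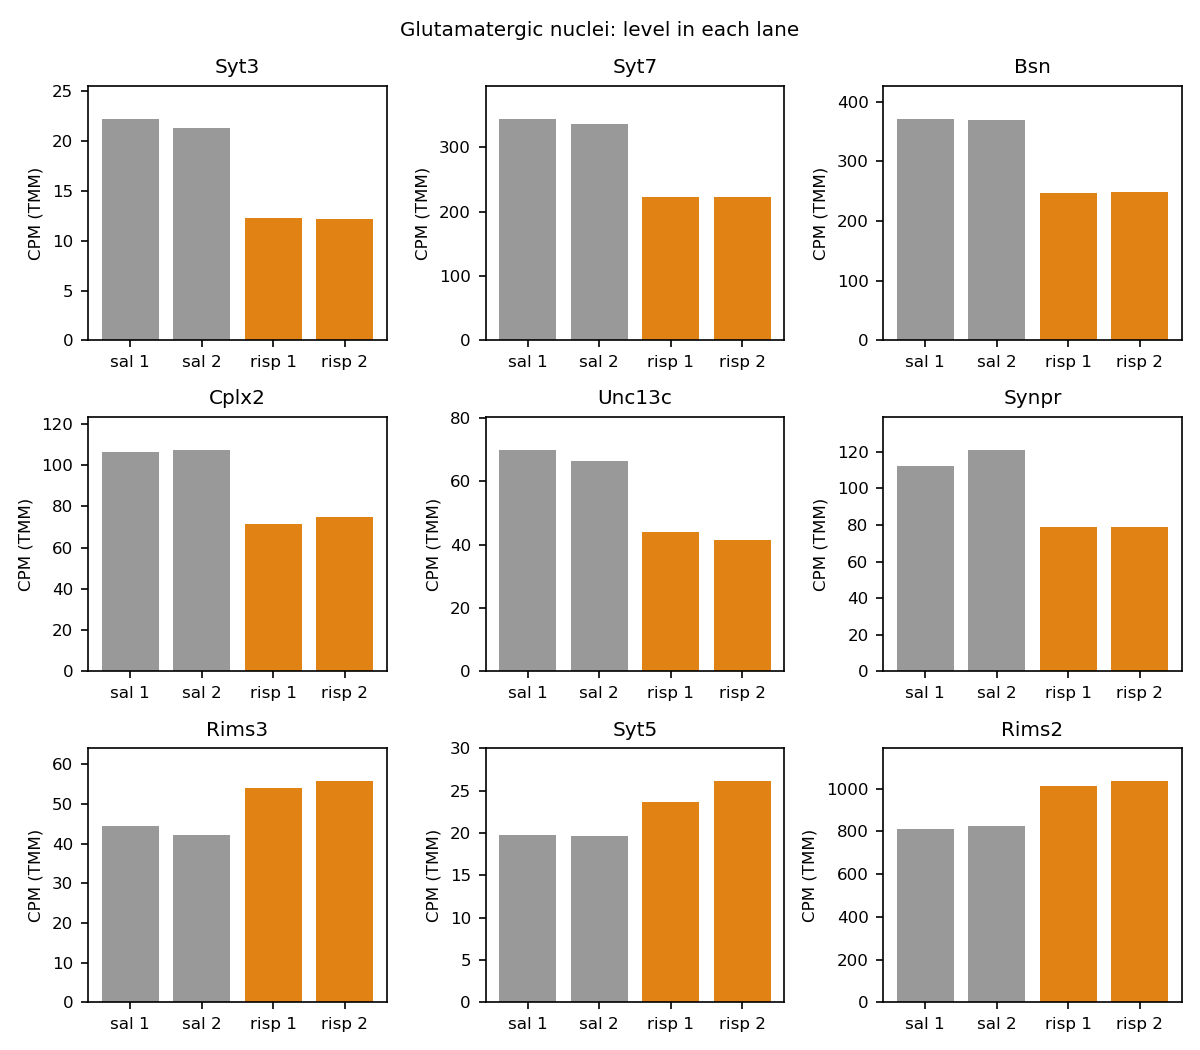
Level in TMM-scaled CPM (y axis from 0) of 9 members in the glutamatergic nuclei of each lane, with saline lanes in grey and risperidone lanes in orange. The upper 6 panels show the listed members, lower in both risperidone lanes, and the bottom row shows Rims3, Syt5 and Rims2, which were higher in both risperidone lanes but below the size of 0.5.

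By role, the vesicle proteins lay lowest as a group in glutamatergic neurons. All 10 measured ones were below 0, with a median of -0.19, where 52.5% of all genes were below 0. This held for 8 of 10 without TMM factors, where the median of all genes was 0.070. These are values of the whole class, and not every vesicle protein was lower within each of its 8 types. Syn1, Syn2, Syn3, Sv2b, Syp and Synpr were below 0 in all 8 types. Rph3a was below 0 in 6 of them, Rab3c in 5, Sv2c in 4 and Sv2a in 2. Scaffolds lay lowest in PV-INs, with a median of -0.18 against -0.06 for the vesicle proteins. Besides Synpr, the vesicle proteins of glutamatergic neurons included Syn1 (-0.26), Sv2b (-0.25), Syn3 (-0.23) and Syp (-0.16), none of which reached the size for listing. Of the 8 measured regulators 5 were below 0 (median -0.14), with Unc13a, the main Munc13 of excitatory synapses, closest to listing. Unc13a had 257 and 251 CPM in the saline lanes and 184 and 186 CPM in the risperidone lanes (log2 fold change -0.45).

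The synaptotagmins and scaffolds were divided. Of 8 measured synaptotagmins 4 were below 0, where 52.5% of all genes were. Syt1, the main fast sensor of these neurons, had 4722 and 4778 CPM against 4757 and 4948 CPM (log2 fold change 0.03) with overlapping lanes. Syt5 was higher, with 19.8 and 19.7 CPM against 23.7 and 26.1 CPM (0.34). Of 8 scaffolds 5 were below 0 (median -0.08), among them Rimbp2 (-0.32), Erc2 (-0.20) and Pclo (-0.13). Rims2 and Rims3 went the other way. Rims2 had 810 and 827 CPM against 1013 and 1035 CPM (0.32), and Rims3 had 44.5 and 42.2 CPM against 54.1 and 55.7 CPM (0.35). Of the 4 SNAREs only Stx1a was below 0 (-0.20). Snap25 had 849 and 855 CPM against 1008 and 1035 CPM (0.26), Vamp2 had 11.8 and 11.9 CPM against 14.2 and 14.0 CPM (0.26), and Vamp1 overlapped between pools (0.01). In all, 25 members had both risperidone lanes below both saline lanes, 10 had them above and 3 overlapped, where 47.8% and 42.5% of all genes were so separated downward and upward.

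**Figure D3:**
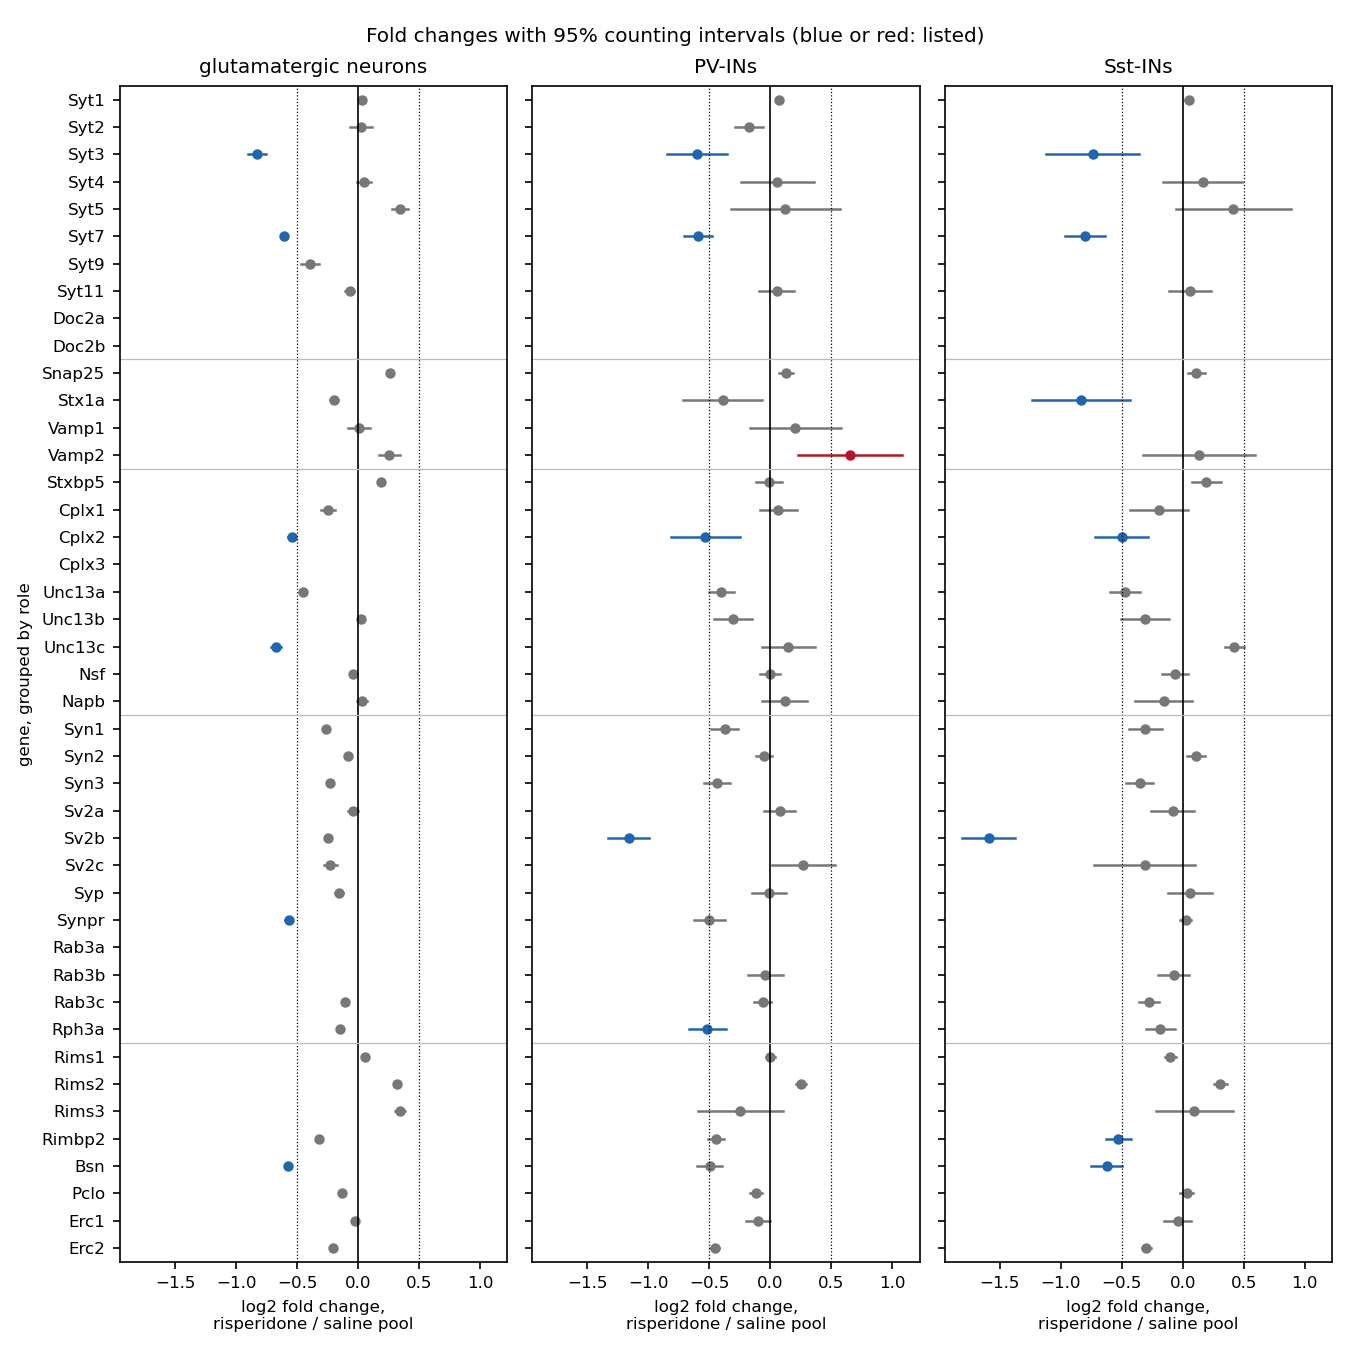
Log2 fold change of each measured member (x axis, risperidone over saline pool) in glutamatergic neurons, PV-INs and Sst-INs, with bars for 95% intervals of counting error and dotted lines at a size of 0.5. Listed members are blue when lower and red when higher, and Syt3, Syt7 and Cplx2 are blue in all 3 panels.

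The 8 glutamatergic types were then compared 1 by 1, since the pools held them in different numbers (2730 and 3069 L2/3 IT nuclei in the saline lanes against 4062 and 3659 in the risperidone lanes). The types share their lanes and are no independent repeats. Assignment to a type was also less certain in the saline lanes. At an assignment margin of 10 in place of 3, 1225 and 1689 L2/3 IT nuclei remained there, against 2827 and 2871 in the risperidone lanes. Fold changes within types were not repeated at that margin. Between 4 and 8 members were listed as lower in each type, with 6 in L2/3 IT, 4 in L4/5 IT, 8 in deep-layer IT, 7 in L5 ET, 6 in Tshz2-high, 6 in L6 CT, 5 in Inpp4b-high and 5 in claustrum-like neurons. The share of all measured genes listed as lower in these types was 7.96%, 6.3%, 7.8%, 11.7%, 7.49%, 8.63%, 7.97% and 7.67% in the same order, with 36 to 39 members measured in each. As higher only Syt5 was listed in L6 CT (0.53) and claustrum-like neurons (0.51), and Rph3a, a Rab3 effector, in Inpp4b-high neurons (0.53), where the share of all genes listed as higher ran from 3.53% to 6.71% (5.81%, 4.77%, 5.62%, 5.9%, 3.53%, 4.56%, 6.49% and 6.71% in the order above).

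Syt3 was listed as lower in all 8 types, with log2 fold changes from -0.97 in L5 ET to -0.64 in Tshz2-high neurons. In L5 ET it had 27.3 and 27.9 CPM in the saline lanes and 14.2 and 13.9 CPM in the risperidone lanes. Syt7 was lower in both risperidone lanes in all 8 types and listed in 7, and it differed least in L6 CT (-0.37), the type in which it was most abundant, where it had 485 and 473 CPM against 367 and 375 CPM. Bsn was likewise separated in 8 types and listed in 7 (-0.76 in L5 ET to -0.48 in L4/5 IT), and Cplx2 was separated in 8 and listed in 5 (-0.83 in L5 ET to -0.36 in L6 CT). In L5 ET neurons, the large projection neurons of layer 5, Bsn had 371 and 372 CPM against 219 and 220 CPM. Without TMM factors these genes were still separated in all 8 types and listed in 8 (Syt3), 5 (Syt7), 4 (Bsn) and 3 (Cplx2).

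Of the 35 members measured in all 8 types, 12 were lower in both risperidone lanes in every type: Syt3, Syt7, Cplx1, Cplx2, Unc13a, Syn1, Sv2b, Syp, Synpr, Rimbp2, Bsn and Erc2. These 12 are 34.3% of the members measured, where 17.9% of all 6387 genes measured in the 8 types were so placed. Another 5 (14.3%, against 14.0% of all genes) were higher in both lanes in every type, namely Syt5, Snap25, Stxbp5, Rims2 and Rims3. Without TMM factors the first group shrank to 6 (Syt3, Syt7, Cplx2, Unc13a, Rimbp2 and Bsn) and the second grew to 6, as Syt1 joined it, while 12.5% and 21.1% of all genes were so placed. With DESeq2 size factors they were 12 and 4, without Rims3. Stxbp5 encodes tomosyn, an inhibitor of SNARE assembly, and its log2 fold change ranged from 0.05 in Tshz2-high to 0.34 in Inpp4b-high neurons.

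Unc13c and Synpr varied most between types. Unc13c was lowest in deep-layer IT neurons, with 45.5 and 38.1 CPM against 11.5 and 12.3 CPM (-1.78), and the level estimated from RNA of other cells was 0.928 and 1.43 times the measured one there. In Inpp4b-high neurons, where it is abundant, it had 434 and 369 CPM against 374 and 433 CPM (0.04) with overlapping lanes and estimated ratios of 0.0958 and 0.0562. Synpr was lowest in L6 CT neurons (42.0 and 48.8 CPM against 16.8 and 15.7 CPM, log2 fold change -1.50, estimated ratios 1.54 and 1.76). In claustrum-like neurons, where Synpr is abundant and the estimated ratios were 0.0642 and 0.0861, the share of RNA of other cells was smaller in the saline lanes (21.7% and 20.6% against 23.4% and 22.6%). Synpr had 673 and 790 CPM against 399 and 501 CPM (-0.72). The part of RNA of other cells in the differences within these types was not tested.

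**Figure D4:**
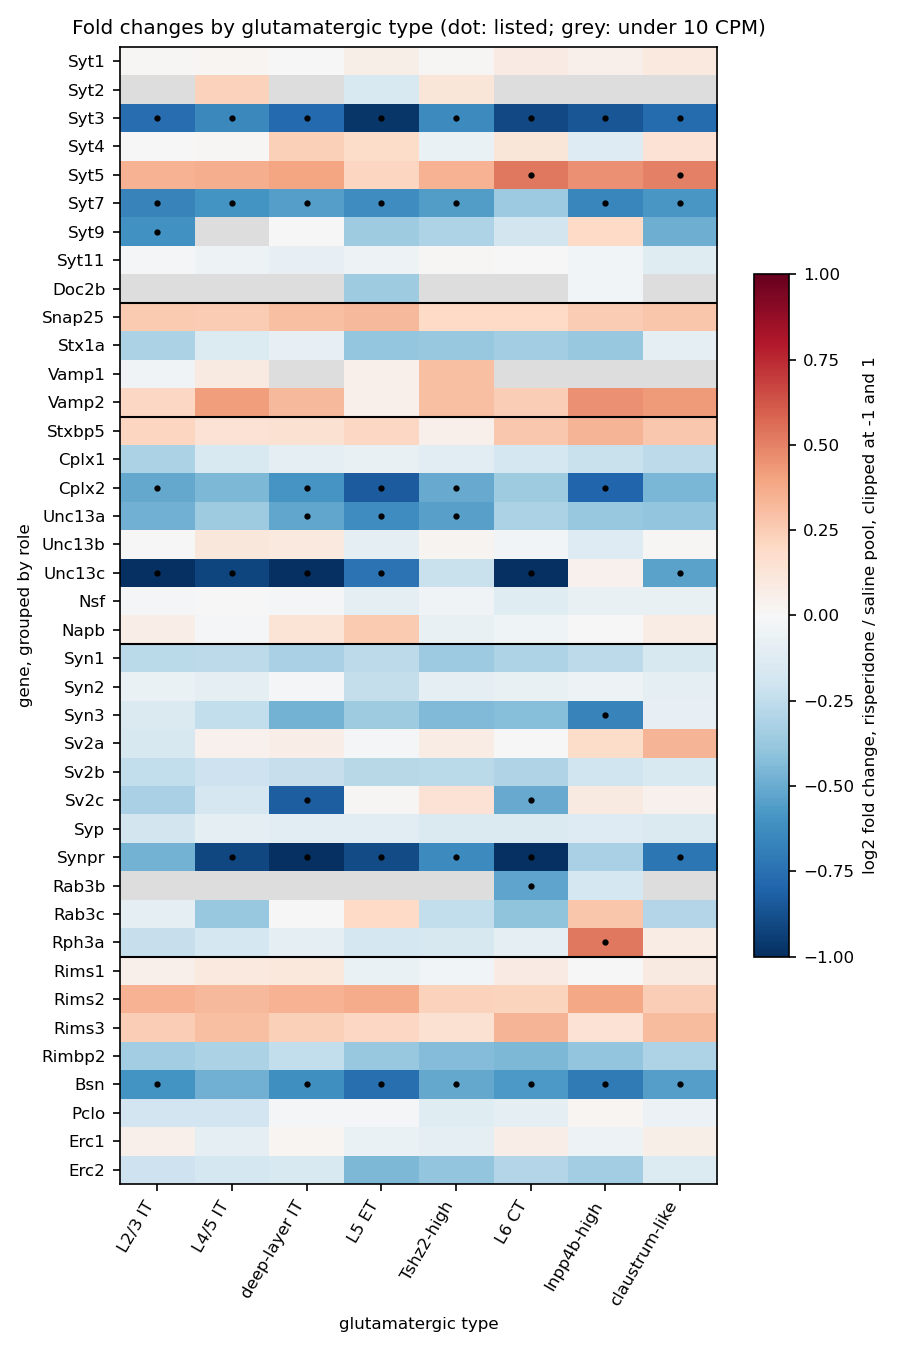
Log2 fold change (colour, risperidone over saline pool) of members in rows and 8 glutamatergic types in columns, with dots for listed members and grey for means under 10 CPM. The rows of Syt3, Syt7, Cplx2 and Bsn are blue, and those of Syt5, Snap25, Stxbp5, Rims2 and Rims3 red, across all columns.

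In PV-INs, fast-spiking cells that inhibit the soma of pyramidal neurons, 38 members were measured. Sv2b, Syt3, Syt7, Cplx2 and Rph3a were listed as lower in the risperidone pool and Vamp2 as higher. These 5 lower are 13.2% of measured members, against 7.36% of all 7497 measured genes, and the 1 higher is 2.63% against 6.32%. Without TMM factors 2 were listed as lower and 1 as higher (all genes 4.25% and 10.1%). The median log2 fold change was -0.06 (all genes -0.01) and became 0.04 without TMM factors. It was 0.03 in nuclei with Y-linked UMIs and without Xist, and -0.12 without saline lane 1. Below 0 were 24 of 38 members (63.2%, against 51.7% of all genes). With the estimated RNA of other cells subtracted, the listing turned to 3 lower (Syt3, Rph3a and Rimbp2) and 4 higher (Vamp2, Unc13c, Sv2c and Rab3a), with 7.32% and 7.84% of all genes. Rab3a lay under the minimum of 10 CPM before the subtraction (mean 9.85 plain CPM, 5.53 in the lowest lane). It entered the count only through the rescaling.

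Syt3, which was higher in PV-INs than in any other neuronal type (mean 32.6 plain CPM), had 41.9 and 37.8 CPM in the saline lanes and 23.7 and 28.3 CPM in the risperidone lanes. Its log2 fold change was -0.60 (-0.85 to -0.36), and the lanes did not overlap. Without risperidone lane 1 it was -0.49, short of the size for listing. Syt7 had 190 and 165 CPM against 122 and 114 CPM (-0.59, -0.71 to -0.48), with estimated ratios for RNA of other cells of 0.564 and 0.448. Rph3a, which encodes rabphilin, had 93.0 and 104 CPM against 74.2 and 64.4 CPM (-0.52, -0.67 to -0.36), with ratios of 0.516 and 0.526. Without saline lane 2 it was -0.45 and without risperidone lane 2 -0.41, short of listing. In nuclei with Y-linked UMIs and without Xist it was -0.09, and in those with Xist and without Y-linked UMIs -0.80.

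Vamp2, the main synaptobrevin of the forebrain, had 11.2 and 8.15 CPM in the saline lanes and 14.7 and 15.4 CPM in the risperidone lanes, from 71 and 146 UMIs (0.65, 0.23 to 1.08). It rests on few molecules, its saline level is at the minimum of 10 CPM, which it passed through the risperidone lanes, and without saline lane 2 its log2 fold change was 0.42. Cplx2 had 37.4 and 22.9 CPM against 19.2 and 21.8 CPM (-0.54, -0.82 to -0.25). Saline lane 1 stood above the other 3 lanes, and without it the log2 fold change of Cplx2 was -0.16. Without risperidone lane 1 it was -0.45.

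Sv2b in PV-INs had 122 and 93.3 CPM against 64.7 and 33.8 CPM (-1.16, -1.33 to -0.995). The summed level of the 5 glutamatergic markers in PV-INs moved with it, at 587 and 454 CPM in the saline lanes and 394 and 286 CPM in the risperidone lanes, with no marker at 0. The estimate for RNA of other cells exceeded the measured Sv2b level in both pools and is thus too large for this gene. With nuclei of mixed class kept, the log2 fold change of Sv2b was -0.20. The part of RNA of other cells in the Sv2b difference was not tested.

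In Sst-INs, which inhibit dendrites, 36 members were measured. Sv2b, Stx1a, Syt7, Syt3, Bsn, Rimbp2 and Cplx2 were listed as lower and no member as higher. These 7 are 19.4% of measured members, against 10.2% of all 7339 genes listed as lower and 6.72% as higher. The median log2 fold change was -0.09 (all genes -0.02), and 22 of 36 were below 0 (61.1%, against 52.3%). Without TMM factors 5 were listed as lower and 1, Unc13c, as higher (all genes 7.19% and 9.75%), and the median became -0.0095 (all genes 0.066).

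Syt7 had 160 and 151 CPM in the saline lanes and 97.9 and 80.9 CPM in the risperidone lanes (-0.80, -0.96 to -0.64). Syt3 had 27.8 and 28.4 CPM against 18.4 and 15.5 CPM (-0.73, -1.12 to -0.36). In nuclei with Y-linked UMIs and without Xist, Syt3 was at -0.35, and neither it nor Syt7 was listed. In nuclei with Xist and without Y-linked UMIs, Syt3 was at -0.97. Bsn had 208 and 230 CPM against 150 and 136 CPM (-0.62, -0.76 to -0.49). For these genes both risperidone lanes lay below both saline lanes, as in glutamatergic neurons. Rimbp2, which ties RIM to calcium channels, had 354 and 319 CPM against 240 and 225 CPM (-0.53, -0.63 to -0.43). The pools did not overlap for Rimbp2 either, and Cplx2, the least of the listed members here, had a log2 fold change of -0.50. Both fell short of listing without saline lane 1 (-0.46 and -0.37), as did Rimbp2 without risperidone lane 2 (-0.47) and Cplx2 without risperidone lane 1 (-0.42).

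Sv2b had 129 and 123 CPM against 45.9 and 38.3 CPM (-1.59, -1.81 to -1.37) and Stx1a had 30.2 and 23.6 CPM against 17.7 and 12.5 CPM (-0.83, -1.24 to -0.43). Both are glutamatergic-type transcripts in these data, and the estimate for RNA of other cells was 1.45 and 2.07 times the measured level for Sv2b and 0.899 and 0.789 times for Stx1a. The 5 glutamatergic markers summed to 533 and 471 CPM in the saline Sst-INs and to 199 and 186 CPM in the risperidone Sst-INs, none at 0. With the estimated RNA of other cells subtracted, 2 members were listed in Sst-INs, Syt3 as lower (-0.80) and Syt5 as higher (0.67), with 8.47% and 7.65% of all genes. Stx1a then had a log2 fold change of -0.06, Syt7 of -0.40 and Bsn of -0.41. The part of RNA of other cells in these Sst-IN differences was not tested.

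Unc13c, most abundant in Sst-INs, had 412 and 433 CPM against 577 and 558 CPM there (0.42, 0.34 to 0.50), from 2274 and 3224 UMIs. It was higher in both risperidone lanes, with estimated ratios for RNA of other cells of 0.0951 and 0.0305, and fell short of the size for listing. Rab3b, the member counted as highest in this class, had a log2 fold change of -0.07, and Synpr, at 1491 and 1575 CPM against 1507 and 1609 CPM, overlapped between the pools (0.02). Of the 37 members measured in glutamatergic neurons and in PV-INs or Sst-INs, 6 (16.2%), Unc13c among them, had both risperidone lanes on opposite sides of the saline lanes in glutamatergic neurons and in an interneuron class, against 9.87% of 6882 genes.

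Vip-INs and Lamp5-INs held between 340 and 491 nuclei per lane, and SPNs 806 and 784 in the saline lanes against 417 and 347. In Vip-INs 6 of 37 members were listed as lower, where 8.89% of all genes were, and in Lamp5-INs 9 of 36, where 10.8% were. In SPNs 8 of 39 were listed as lower, where 12.5% of all genes were, and in none of these classes was a member listed as higher (all genes 7.28%, 7.96% and 7.26%). The estimated share of RNA of other cells was again larger in the saline lanes: 34.9% in both against 17.3% and 26.4% in Vip-INs, 35.5% and 37.2% against 29.7% and 28.2% in Lamp5-INs, and 43.3% and 48.9% against 28.4% and 30.8% in SPNs. SPN nuclei with Y-linked UMIs and without Xist numbered 201 and 194 in the saline pool but 20 and 26 in the risperidone pool. The part of both in these counts was not tested. Between the risperidone lanes, 13.5% of members in Vip-INs, 11.1% in Lamp5-INs and 2.56% in SPNs differed by at least 0.5 (all genes 9.94%, 10.2% and 8.19%). Synpr in Lamp5-INs had 387 and 540 CPM in the saline lanes and 231 and 91.7 CPM in the risperidone lanes (-1.55, -1.68 to -1.41), with estimated ratios for RNA of other cells of 0.176 and 0.297. The lanes of each pool differed widely from one another here, although the pools did not overlap. Bsn in SPNs had 269 and 308 CPM against 162 and 149 CPM (-0.90).

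Over the 13 neuronal types, Syt3 was listed as lower in 12, with the exception of Lamp5-INs, and Syt7 in 12, with the exception of L6 CT. Cplx2 and Bsn were listed in 10 types each, and all 4 genes had both risperidone lanes below both saline lanes in all 13. Of the 35 members measured in all 13 types, 4 (11.4%) were thus listed in at least 10 types and 2 (5.71%) in at least 12, against 2.76% and 1.64% of the 6022 genes measured there. The cut-offs of 10 and 12 types are these members' own counts, so the comparison favours the members and no conclusion is drawn from it. Both lanes were lower in every type for 8 members (22.9%), where this held for 10.4% of the 6022 genes. Without TMM factors this number fell to 4 members (Syt3, Syt7, Unc13a and Bsn), and those higher in every type, given below, rose to 3 as Syt1 joined them, with 6.70% and 10.4% of all genes. Without TMM factors the counts of types for Syt3, Syt7, Cplx2 and Bsn were 12, 8, 5 and 7, and their lanes were separated in all 13 types except for Cplx2, in 12. With the estimated RNA of other cells subtracted, Syt7 and Cplx2 were no longer listed in PV-INs, nor Syt7, Bsn and Cplx2 in Sst-INs. Syt3 stayed listed in both. Snap25 and Rims2 had both risperidone lanes above both saline lanes in all 13 types, without reaching the size for listing in any, and these 2 are 5.71% of the members against 5.85% of all genes. With DESeq2 size factors this held for Snap25 in 12. Of the 40 members measured in at least 1 of these types, 15 were listed as lower and 3 as higher in some type, Rph3a in both directions, and 23 were never listed. As shares these are 37.5%, 7.5% and 57.5%, where 28.4%, 22.2% and 50.8% of the 8901 genes measured in at least 1 type were placed likewise.

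Nuclei of non-neuronal classes showed the largest differences, although astrocytes, oligodendrocytes and vascular cells do not release synaptic vesicles in this way. In astrocytes 23 of 34 measured members were listed as lower (18.3% of all genes), with a median of -0.98, and in mural and fibroblast-like nuclei 26 of 37 (22.9% of all genes), with a median of -1.27. Oligodendrocytes had 22 of 38 (22.3% of all genes) and oligodendrocyte precursors 12 of 37 (12.9%). The risperidone lanes of oligodendrocytes differed from each other, with a member median of -0.33 for lane 1 and -1.14 for lane 2 over saline lane 1, and 28 of 38 members (73.7%, against 34.7% of all genes) differed by at least 0.5 between those lanes of the same pool. Such a difference between the risperidone lanes was seen for 56.8% of members and 47.8% of all genes in endothelial nuclei, and for 43.2% and 39.2% in mural and fibroblast-like nuclei. Between the saline lanes it was seen for 7.89%, 35.1% and 24.3% of members and 9.54%, 45.5% and 36.2% of all genes in these 3 classes. In endothelial nuclei, of which a lane held 81 to 133, 25 of 37 were listed as lower (26.6% of all genes) and 1 as higher (22.2%). Syt1 still averaged 1098 plain CPM in astrocytes, against 3787 to 6345 in neuronal types. The part of RNA of other cells in the glial values was not tested.

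A wider list of 39 other release and recycling genes, none of them a member, was measured by the same rule. In glutamatergic neurons 36 were measured, 2 were listed as lower (5.56%, against 7.58% of all genes) and 1 as higher (2.78%, against 4.26%), with a median of -0.05. The lower ones were Tspoap1 (-0.51), which encodes a further RIM-binding protein, and Dnm1 (-0.50), the dynamin of vesicle recycling. The higher one was Slc17a6, a vesicular glutamate transporter, at 8.32 and 8.28 CPM against 11.6 and 12.6 CPM (0.55), which reached the minimum of 10 CPM only through the risperidone lanes. In PV-INs 3 of 35 were listed as lower (8.57%, against 7.36% of all genes) and in Sst-INs 5 of 35 (14.3%, against 10.2%). As higher 1 was listed in each class (2.86%, against 6.32% and 6.72% of all genes). In both classes the only one listed as higher was Slc32a1, the vesicular transporter of GABA, with 13.1 and 14.7 CPM against 35.1 and 38.0 CPM in PV-INs (1.39) and 13.5 and 10.3 CPM against 29.4 and 31.4 CPM in Sst-INs (1.38). Of the lower ones, Syt17 had -0.54 in PV-INs and -1.26 in Sst-INs, and Cadps2 had -1.58 in Sst-INs.

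The base composition of the members' transcripts, which the choice had not used, ranged from 38.7% to 60.4% G and C. The listed calcium sensors and Bsn lay above 50%: the GC content of the longest annotated transcript was 59.2% for Syt3, 54.7% for Syt7 and 59.8% for Bsn. Across the 38 members in glutamatergic neurons, Spearman's rho between GC content and log2 fold change was -0.29, and across all 7227 genes with an annotation it was -0.40. These are correlations across genes of the same pools, and genes are not independent replicates. Of members with a GC content of at least 50%, 14 of 18 were below 0 (77.8%, against 71.0% of all genes of that kind, median -0.22) and 4 (22.2%) were listed as lower, against a median of -0.17 and 12.95% for all 2833 genes of that kind. Of members under 50%, 11 of 20 were below 0 (55%, against 40.6%, median -0.05) and 2 were listed (10%, against 4.12% of 4394 genes, whose median was 0.07).

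**Figure D5:**
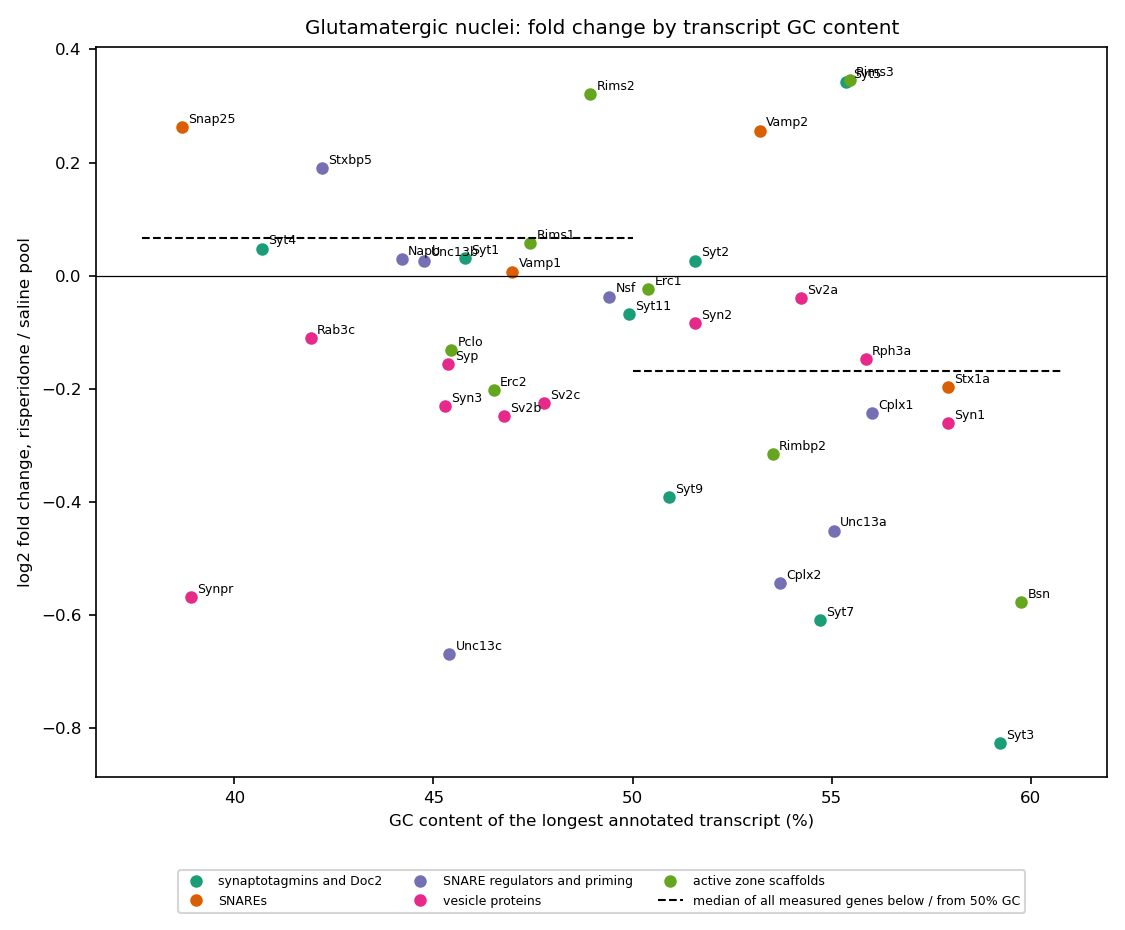
Log2 fold change in glutamatergic neurons (y axis, risperidone over saline pool) against GC content of the longest annotated transcript in percent (x axis) for 38 members, coloured by role, with dashed lines at the median of all genes below and from 50% GC. Syt3 and Bsn lie at the right and bottom, Syt5, Rims3 and Vamp2 lie high on the right, and Synpr and Unc13c lie low at the left.

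In the interneurons rho was -0.29 over 38 members in PV-INs and -0.38 over 36 in Sst-INs. In Sst-INs 6 of the 7 listed members had a GC content of at least 50%, which is 6 of 16 (37.5%) against 17.6% of all genes of that kind. In glutamatergic neurons Synpr and Unc13c, at 38.9% and 45.4% GC, were listed as lower, and Syt5, Rims3 and Vamp2, all above 50% GC, were higher in both risperidone lanes. The part of base composition in the differences between the pools was not tested.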

How the data were processed

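Nuclear RNA of pooled cortex was measured with Chromium 3′ chemistry. Per the labels and methods the authors aligned reads with Cell Ranger 8.0.1 to mm10, counted intronic reads too, and deposited a filtered matrix for each lane, which holds raw UMI counts. Assigning intronic reads favours long genes and measures nuclear, partly unspliced RNA, not protein.

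The members and lists were chosen with earlier results of these data known. Nuclei under 500 genes or over 5% mitochondrial UMIs were removed. Each was assigned by a Poisson likelihood over 113 marker genes, with a margin of at least 3. A nucleus fitted better by an equal mixture of 2 classes by at least 10 was left out. These thresholds were set after marker levels had been seen, and 7931, 7224, 4930 and 4978 nuclei had no class. Counts were summed per class and lane. Microglia are not analysed here. RNA of other cells was estimated from marker genes of other classes and spread over genes by their share of the whole lane. For some genes this estimate exceeded the measured level and was too large. Subtraction was stopped before a count turned negative, so the subtracted values are rough. Fold changes used edgeR 4.0.16 TMM factors with the thresholds given above, since 1 pool per condition allows no test. Named are the listed members, at most 12 in glutamatergic neurons and 6 in each interneuron class, and members highest in 1 type. Other members and lanes named beside them were chosen after their values were seen. Doublet-like nuclei, ranked by their likeness to simulated doublets, were removed only as an alternative. The share removed (11.8%, 12.0%, 10.4% and 9.38% of the lanes) was set in advance from the number of nuclei in a lane. It is therefore no measured doublet rate. The other alternatives were DESeq2 1.42.0 size factors, plain CPM, other minimum levels, single lanes left out, stricter assignment, mixed nuclei kept, a UMI window, subtraction of RNA of other cells, nuclei of 1 sex, and equal weights of layer types. Positions are from GENCODE vM21 on GRCm38, and Python 3.11.15 and R 4.3.3 were used. Scripts were tested on simulated data.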

Additional observations from a re-analysis of the deposited data

Results flagged for a closer look

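For 6 members both risperidone lanes lay on opposite sides of the saline lanes in glutamatergic neurons and in an interneuron class. These are 16.2% of 37 members, where 9.87% of 6882 genes were placed likewise. The difference between the classes was not tested, and several of the values are close to 0. As log2 fold changes, Unc13c had -0.67 in glutamatergic neurons and 0.42 in Sst-INs. Rims3 had 0.35 in glutamatergic neurons and -0.25 in PV-INs. Unc13b had 0.027 in glutamatergic neurons, -0.31 in PV-INs and -0.31 in Sst-INs. Sv2a had -0.039 in glutamatergic neurons and 0.078 in PV-INs. Within the 8 glutamatergic types, however, Sv2a was below 0 in only 2, with a median of 0.054 over the types. Both risperidone lanes were higher in 5 of these types and lower in 1. The direction of the Sv2a value for the whole class thus did not hold within most of its types. The part of the mix of types in that value was not tested. Syn2 had -0.084 in glutamatergic neurons and 0.11 in Sst-INs, and Rims1 had 0.057 and -0.10. Of the glutamatergic values of these members, those of Sv2a and Syn2 change sign without TMM factors.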

How the results depend on the processing

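Without TMM factors (plain CPM), 3 members were listed in glutamatergic neurons in place of 6, with a median log2 fold change of -0.033 in place of -0.12. In PV-INs 3 were listed in place of 6 and the median turned from -0.06 to 0.038, and in Sst-INs the median was -0.0095 in place of -0.09. This scaling raised the median of all genes by less than 0.1 in these 3 classes, and in L5 ET and Tshz2-high neurons from -0.03 to 0.09 and from -0.05 to 0.06.

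The median in glutamatergic neurons was -0.15 in nuclei of 2000 to 10000 UMIs, -0.076 in nuclei with Y-linked UMIs and without Xist, and -0.048 with layer types weighted equally. In PV-INs the median was 0.030 in nuclei with Y-linked UMIs and without Xist and -0.12 in those with Xist alone. It was -0.079 with DESeq2 size factors, -0.082 with no minimum level, -0.082 with a minimum of 50 CPM and -0.10 with mixed nuclei kept. In PV-INs 3 members were listed with a minimum of 50 CPM and 3 with mixed nuclei kept. With RNA of other cells subtracted, 2 were listed in Sst-INs in place of 7, with a median of -0.18, and in PV-INs 3 were lower and 4 higher in place of 5 and 1.

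Leaving out 1 lane at a time gave 6 listed members in glutamatergic neurons each time, 5 to 7 in PV-INs and 6 to 8 in Sst-INs. The medians were -0.15 to -0.10, -0.12 to -0.071 and -0.11 to -0.07. Calls were gained as well. Leaving out saline lane 1 gave 3 higher and 4 lower in PV-INs, in place of 1 and 5. Sst-INs had 1 member listed as higher without saline lane 2 and 1 without risperidone lane 1. In PV-INs the calls lost were Cplx2 without saline lane 1, Rph3a and Vamp2 without saline lane 2, Syt3 and Cplx2 without risperidone lane 1, and Rph3a without risperidone lane 2. In Sst-INs they were Rimbp2 and Cplx2 without saline lane 1, Cplx2 without risperidone lane 1, and Rimbp2 without risperidone lane 2. Interneuron calls also depended on the sex of the nuclei. With Y-linked UMIs and without Xist, Syt7 (-0.37), Vamp2 (0.33) and Rph3a (-0.09) were lost in PV-INs. Syt3 (-0.35), Syt7 and Stx1a were lost in Sst-INs. With Xist and without Y-linked UMIs, Syt3 (-0.46) and Cplx2 were lost in PV-INs and Cplx2 in Sst-INs. In nuclei with Y-linked UMIs and without Xist, 10 of 38 members changed sign in PV-INs, and in Sst-INs 9 of 36 did. The share of all genes that changed sign was not taken, so these counts show nothing particular to the members. The cause of these sign changes was not tested. Members highest in 1 neuronal type numbered 9 to 13 over the alternatives, and the type with the highest mean stayed the same for each of the 12. The members counted changed, however. Synpr was lost with stricter assignment, in the UMI window, with RNA of other cells subtracted and in nuclei of either sex. Sv2a, Syn3, Cplx3, Doc2b and Rims1 were lost in some alternatives, and Unc13c, Erc2, Syt7, Stx1a and Syn2 were gained in some.

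With the Inpp4b-high nuclei left out (a choice made once the data had been seen), 6 members were listed in glutamatergic neurons and Unc13c had a log2 fold change of -0.94. Depth limits the interneuron values, as a member at 10 CPM has few UMIs per lane there. No paired analysis was possible because the lanes are technical runs of 1 pool per condition, the lane numbers link nothing across pools, and no result comes from a test.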
